A study of Mus musculus with 6 samples.

Results

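Adventitial fibroblasts were followed through 10 marker genes in bulk RNA-seq of mouse aortas. The genes, Pdgfra, Pi16, Dpp4, Ly6a, Cd34, Cd248, Clec3b, Dpt, Serpinf1 and Gsn, were picked by their symbols out of 55487 annotated genes, and each matched 1 row of the count table. Male C57BL/6 mice with an inducible smooth muscle-specific knockout of Prdm16 (iSM KO, n = 3, Myh11-CreERT2 with Prdm16 F/F alleles, exon 9 floxed) were compared with Control mice (n = 3, Myh11-CreERT2 with Prdm16 W/W alleles). All mice of both groups carried the Cre and were given tamoxifen from 8 weeks of age in 10 daily intraperitoneal injections. Aortas were taken 60 days after a washout of 2 weeks, at baseline without vascular injury. The Myh11 promoter drives the Cre in smooth muscle cells, so the deletion was directed at muscle and not at the fibroblasts measured here. The adventitial layer was peeled off under a stereoscope before RNA extraction, so adventitial fibroblasts were measured only as far as they remained on the cleaned vessel wall. The labels name separate aortas for the libraries but no litters or days, and p-values measure the spread between these aortas.

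The adventitia is the outer coat of an artery, and its fibroblasts deposit the loose collagen matrix that anchors the vessel. PDGFRA, a receptor for platelet-derived growth factors, marks fibroblasts across tissues, whereas PI16, DPP4, LY6A (SCA-1), CD34 and CD248 mark progenitor-like fibroblasts of the outer adventitia. CLEC3B, DPT and SERPINF1 are secreted matrix or matrix-associated proteins made by many fibroblasts. Several of these genes are not private to fibroblasts: endothelial cells also express Ly6a and Cd34, mural cells can express Cd248, and Gsn is made by smooth muscle.

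The genes lie apart in the genome, on 8 chromosomes of GRCm38, and all are protein-coding. Pdgfra spans chr5:75152292-75198215 on the plus strand, Pi16 spans chr17:29317680-29330593 on the plus strand, and Clec3b spans chr9:123150946-123157432 on the plus strand. Dpt (chr1:164796644-164824266) and Cd34 (chr1:194938819-194961279) share chromosome 1 and the plus strand. Dpp4 (chr2:62330073-62412231, minus strand) and Gsn (chr2:35256380-35307892, plus strand) share chromosome 2. Ly6a lies at chr15:74994877-74998031 on the minus strand, Serpinf1 at chr11:75409769-75422701 on the minus strand and Cd248 at chr19:5068078-5070682 on the plus strand. RefSeq promoter windows of GRCm38.p6, from 250 bases before to 50 bases after the annotated start, were held for 7 of the 10 genes, but not for Clec3b, Cd248 and Ly6a. The 4 windows below belong to genes that ranked the libraries in the same order within each group, as described further on. Gsn, which had this order too, has 3 annotated starts and its windows are not shown. They run 5′ to 3′ on the strand of the gene, and capitals mark a CCAAT box or a TATAAA box found on that strand or its complement.
Pi16 (chr17:29318632-29318931): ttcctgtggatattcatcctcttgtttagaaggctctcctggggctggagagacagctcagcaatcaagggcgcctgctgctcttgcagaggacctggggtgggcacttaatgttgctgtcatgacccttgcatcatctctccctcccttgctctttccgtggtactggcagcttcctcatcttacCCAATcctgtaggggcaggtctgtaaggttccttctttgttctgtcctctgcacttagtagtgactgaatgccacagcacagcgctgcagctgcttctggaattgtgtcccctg
Dpt (chr1:164796413-164796712): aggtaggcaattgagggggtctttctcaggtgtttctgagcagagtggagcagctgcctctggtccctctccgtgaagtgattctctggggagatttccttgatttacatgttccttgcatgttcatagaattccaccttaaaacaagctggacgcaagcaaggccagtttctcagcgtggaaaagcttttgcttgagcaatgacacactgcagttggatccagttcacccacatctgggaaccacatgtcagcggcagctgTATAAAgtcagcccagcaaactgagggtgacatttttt
Serpinf1 (chr11:75422574-75422873): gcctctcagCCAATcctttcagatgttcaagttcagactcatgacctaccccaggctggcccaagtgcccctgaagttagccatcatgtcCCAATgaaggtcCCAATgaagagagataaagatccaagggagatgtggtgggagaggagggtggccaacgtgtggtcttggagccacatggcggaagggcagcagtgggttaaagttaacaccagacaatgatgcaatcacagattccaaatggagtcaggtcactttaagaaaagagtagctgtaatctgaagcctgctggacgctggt
Pdgfra (chr5:75152001-75152300): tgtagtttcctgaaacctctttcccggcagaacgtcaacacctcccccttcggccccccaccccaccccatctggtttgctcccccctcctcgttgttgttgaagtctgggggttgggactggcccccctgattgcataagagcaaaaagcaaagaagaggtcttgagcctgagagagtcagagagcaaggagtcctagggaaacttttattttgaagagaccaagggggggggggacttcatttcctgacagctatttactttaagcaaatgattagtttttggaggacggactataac

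These 4 windows held different motifs. Pi16 had 1 CCAAT, 64 bases before the RefSeq start of its window. That window lies wholly inside the GENCODE span of Pi16 given above, so it is not the sequence upstream of that span. Serpinf1 had 3 CCAAT motifs, at 241, 160 and 148 bases before the start. Dpt had a TATAAA that begins 13 bases after the annotated start, and Pdgfra had none of the motifs searched. The search read both strands and also covered the GC box (GGGCGG), the AP-1 motif (TGANTCA) and the CArG box bound by serum response factor. Of 32851 mouse promoter windows of the same length, 37.4% held the CCAAT box, 13.6% the TATAAA box, 35.7% the GC box, 7.81% the AP-1 motif and 1.63% a CArG box. No CArG box and no AP-1 motif was in any window of the 7 genes, and the Cd34 window held none of the motifs. G and C made up 53.3% of the Pi16 window, 48.7% of Dpt, 50.7% of Serpinf1 and 51.0% of Pdgfra, beside a median of 52.7% over all windows.

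The 6 libraries held between 24911609 and 40460467 estimated counts, Control 3 being the shallowest. Prdm16 itself, counted over the whole gene, was 182.9, 223.0 and 178.5 CPM (counts per 1000000 after scaling by the trimmed mean of M values, TMM) in Control 1 to 3, and 93.8, 112.7 and 79.8 CPM in iSM KO 1 to 3. No iSM KO aorta reached the Control range, the log2 fold change being -1.03 (SE 0.14, FDR = 0.00265), which is the direction the labels call for. Smooth muscle was the bulk of the tissue: Myh11, the smooth muscle myosin heavy chain, averaged 1025 ± 57.6 CPM per kilobase of exon in Control aortas (SD, n = 3).

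Against this muscle background, Gsn was abundant and the other tested markers were counted at low to moderate levels in every aorta. Dpp4 fell to 1 and 2 counts in iSM KO 1 and 2, under the floor of 3 counts used here. Per kilobase of exon, Gsn, the actin-severing protein gelsolin, was the most abundant in Control aortas at 176 ± 19.2 CPM per kilobase (SD, n = 3). Cd248 (endosialin) followed at 15.4 ± 0.70, Dpt (dermatopontin) at 14.1 ± 6.46, Ly6a at 13.0 ± 4.05, Serpinf1 (pigment epithelium-derived factor) at 12.8 ± 4.20 and Clec3b (tetranectin) at 11.9 ± 5.48 CPM per kilobase. Neighbours from Cd248 down to Clec3b in this order overlapped in their Control ranges and could not be ranked. A lower tier held Cd34 at 5.05 ± 1.05, Pi16 at 4.57 ± 1.49 and Pdgfra at 4.0 ± 1.23 CPM per kilobase, which overlapped among themselves and lay wholly below Clec3b. Dpp4, the surface protease CD26, came last at 0.0687 ± 0.0261 CPM per kilobase, with no overlap with Pdgfra. In iSM KO aortas Gsn and then Cd248 were highest, each without overlap with the gene below, at 147 ± 9.68 and 20.0 ± 1.45 CPM per kilobase. Exon lengths were the union over transcripts, so these levels are low estimates where the transcripts in use are shorter than the union. The union was long in the lower tier, at 10024 bases for Pdgfra, 7290 for Cd34 and 6364 for Pi16.

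**Figure D1:**
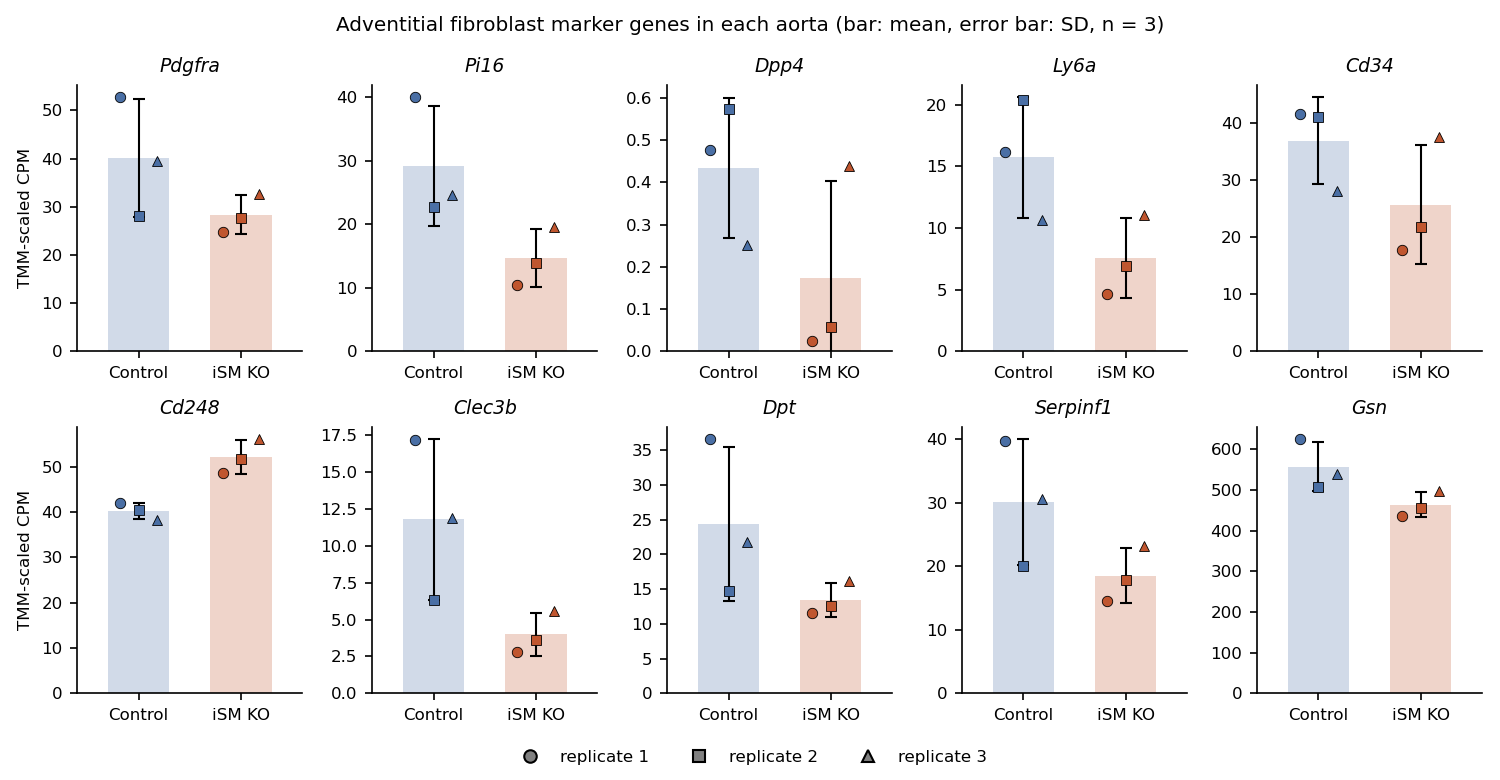
TMM-scaled CPM (y axis, linear, one scale per gene) of the 10 marker genes in 3 Control and 3 iSM KO aortas. Points are libraries, shaped by replicate number, bars are means and error bars are SD. Clec3b, Pi16 and Gsn lay lower in all 3 iSM KO aortas than in any Control aorta, Cd248 lay higher in all 3, and the groups overlapped for the other 6 genes.

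Whether loss of Prdm16 from smooth muscle went with a change in these fibroblast genes was asked in the comparison of iSM KO with Control aortas. Of the 10 genes, Clec3b was lower and Cd248 was higher in iSM KO aortas at an FDR under 0.05, and the other 7 tested genes did not pass. All of those 7 had negative fold changes, so 8 of the 9 tested genes lay on the lower side, as did 8679 of all 16565 genes tested. The median log2 fold change was -0.70 over the 9 and -0.01 over all genes. Dpp4 was too low to be tested. Here FDR is the Benjamini-Hochberg adjusted p of edgeR's quasi-likelihood test over all genes, which called 3.3% of them lower and 4.26% higher. With the study's additional demand of a fold over 2, only Clec3b passed among the members, on the lower side (1.38% of all genes), and no member passed on the higher side (1.4% of all genes). At an unadjusted p under 0.05, 7 members were lower and 1 was higher, against 11% and 11.1% of all genes. In bulk tissue, fewer cells of a type and less RNA per cell cannot be told apart.

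Clec3b encodes tetranectin, a secreted plasminogen-binding lectin. It was measured at 17.2, 6.30 and 11.9 CPM in Control 1 to 3, and at 2.77, 3.64 and 5.59 CPM in iSM KO 1 to 3. All 3 iSM KO aortas lay below the lowest Control aorta, although iSM KO 3 came close to Control 2. The mean fell from 11.8 ± 5.43 to 4.0 ± 1.44 CPM (SD, n = 3 each), 2.94-fold, with a log2 fold change of -1.56 (SE 0.36, 95% interval -2.38 to -0.73, FDR = 0.0348). This call was sensitive to single libraries. It was lost without Control 1 (FDR = 0.101), Control 3 (0.0939), iSM KO 1 (0.114) or iSM KO 2 (0.133), with log2 fold changes of -1.16, -1.55, -1.35 and -1.50, and it was kept without Control 2 (0.00906) or iSM KO 3 (0.0268).

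Cd248 encodes endosialin, a surface glycoprotein of fibroblasts and pericytes, and it moved the opposite way. It was measured at 41.9, 40.4 and 38.2 CPM in Control 1 to 3, and at 48.5, 51.6 and 56.0 CPM in iSM KO 1 to 3. The groups did not overlap, and the Control aortas lay closer together than for any other member, the highest being 1.09 times the lowest. The highest iSM KO aorta was 1.16 times the lowest. The mean rose from 40.2 ± 1.82 to 52.0 ± 3.77 CPM (SD, n = 3 each), a log2 fold change of 0.37 (SE 0.08, 95% interval 0.19 to 0.56, FDR = 0.0265). The call was lost without Control 3 (FDR = 0.0724), iSM KO 1 (0.0502), iSM KO 2 (0.116) or iSM KO 3 (0.0939), while the log2 fold change stayed between 0.31 and 0.42.

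Pi16, a peptidase inhibitor that marks the adventitial progenitor-like fibroblast, missed the threshold narrowly. It was measured at 40.0, 22.8 and 24.6 CPM in Control 1 to 3, and at 10.48, 13.9 and 19.5 CPM in iSM KO 1 to 3. Every iSM KO value was below every Control value, with a log2 fold change of -0.99 (SE 0.26, 95% interval -1.58 to -0.41) and an FDR of 0.052 in the same edgeR fit. Without Control 2 or iSM KO 3 it passed (FDR = 0.0427 and 0.0248). Gsn was the third gene below its Control range in every iSM KO aorta. It was measured at 625, 507 and 540 CPM in Control 1 to 3 and at 437, 457 and 497 CPM in iSM KO 1 to 3, a log2 fold change of -0.27 (SE 0.10, FDR = 0.174). Non-overlapping groups were also seen for 13% of all genes on the lower side and 15% on the higher side, beside 3 and 1 of the 9 tested members.

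Pdgfra, the receptor that defines fibroblasts in most atlases, was measured at 52.7, 28.2 and 39.5 CPM in Control 1 to 3. In iSM KO 1 to 3 it was 24.8, 27.6 and 32.7 CPM, so that Control 2 lay inside the iSM KO range. Its log2 fold change was -0.50 (SE 0.20, 95% interval -0.96 to -0.04, FDR = 0.191), and without Control 2 it was -0.70 and passed (FDR = 0.0303). Dpt encodes dermatopontin, which binds collagen fibrils and decorin. It was measured at 36.6, 14.8 and 21.8 CPM in Control 1 to 3 and at 11.6, 12.6 and 16.2 CPM in iSM KO 1 to 3. Control 2 again lay among the iSM KO aortas, and the log2 fold change was -0.86 (SE 0.29, 95% interval -1.51 to -0.21, FDR = 0.117). Serpinf1, an anti-angiogenic serpin, was measured at 39.8, 20.0 and 30.6 CPM in Control 1 to 3 and at 14.6, 17.9 and 23.2 CPM in iSM KO 1 to 3. Its log2 fold change was -0.70 (SE 0.24, 95% interval -1.25 to -0.14, FDR = 0.134). Without Control 2, Dpt (log2 fold change -1.12, FDR = 0.0236) and Serpinf1 (-0.92, FDR = 0.0282) passed as well.

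Ly6a and Cd34 are shared with endothelium, and both overlapped between the groups. Ly6a was measured at 16.1, 20.4 and 10.7 CPM in Control 1 to 3 and at 4.64, 6.93 and 11.03 CPM in iSM KO 1 to 3, a log2 fold change of -1.07 (SE 0.31, FDR = 0.0767). Cd34, a sialomucin, was measured at 41.5, 41.0 and 28.1 CPM in Control 1 to 3 and at 17.8, 21.8 and 37.5 CPM in iSM KO 1 to 3, a log2 fold change of -0.52 (SE 0.26, FDR = 0.278). For both genes iSM KO 3 reached above Control 3, and without iSM KO 3 both passed (Ly6a -1.46, FDR = 0.0214, and Cd34 -0.91, FDR = 0.0259). Dpp4 was covered by 16, 22 and 6 estimated counts in Control 1 to 3 and by 1, 2 and 16 in iSM KO 1 to 3. iSM KO 3 alone held most of the iSM KO counts and the groups overlapped, so no difference in Dpp4 was detectable at this depth.

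**Figure D2:**
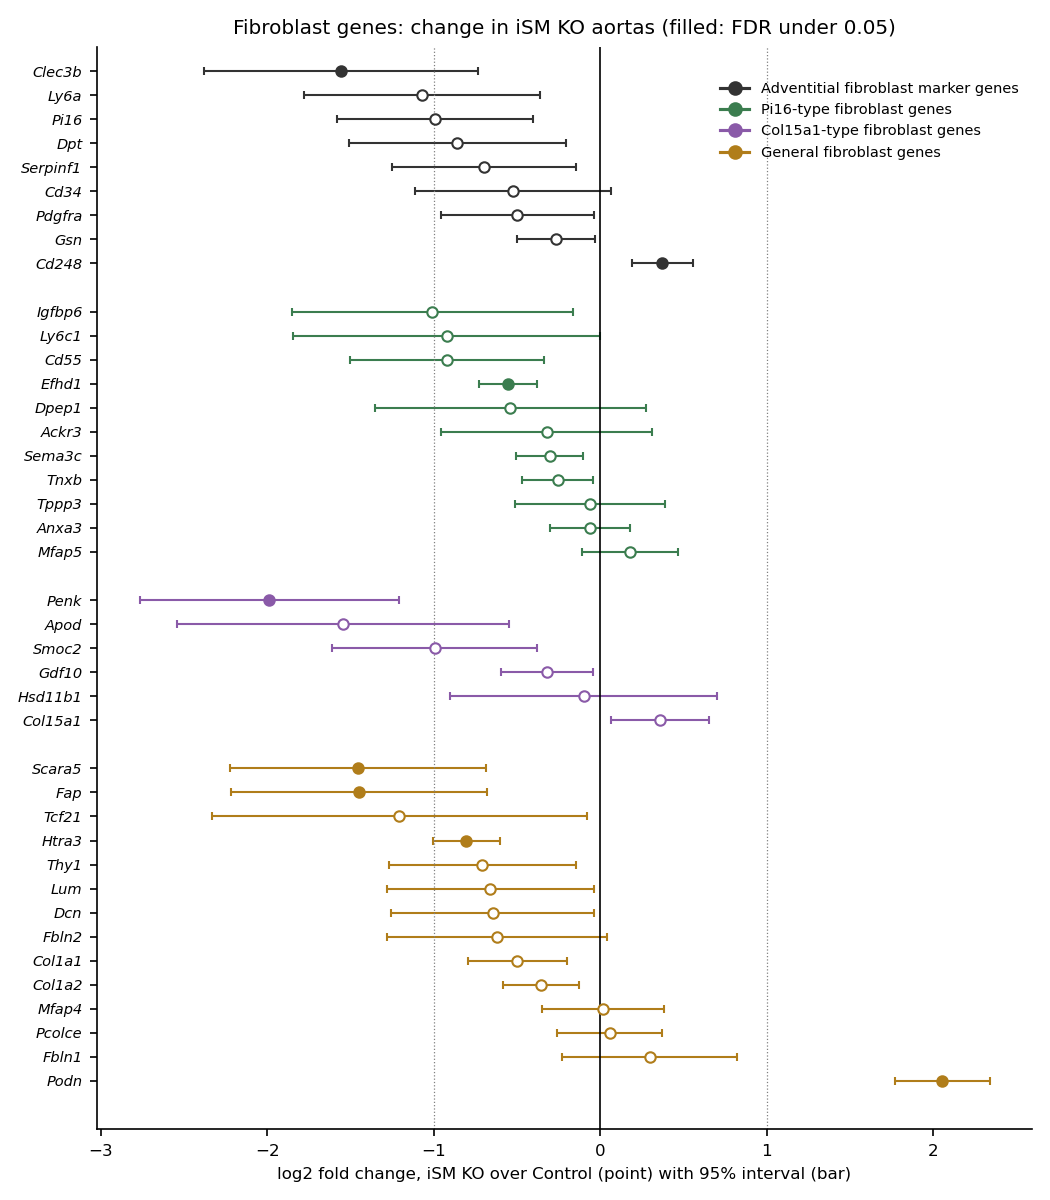
Log2 fold change of iSM KO over Control (x axis) with its 95% interval for the 9 tested marker genes and 31 other fibroblast genes in 3 lists (y axis, by gene, coloured by list); filled points have an FDR under 0.05 and dotted lines mark a 2-fold change. Among the marker genes Clec3b (-1.56) and Cd248 (0.37) were filled, and most points of all 4 lists lay left of 0.

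Other fibroblast genes were read from 3 lists. Among 11 genes of the Pi16-type progenitor-like state, 1 was lower and 0 were higher at an FDR under 0.05, with a median log2 fold change of -0.32. The lower gene was Efhd1, a mitochondrial calcium-binding protein, at -0.56 (FDR = 0.00322). Cd55, the complement decay-accelerating factor, was at -0.92 (FDR = 0.0665), and Igfbp6, a binder of insulin-like growth factor 2, at -1.01 (FDR = 0.154). Of 6 tested genes of the Col15a1-type state, 1 was lower and 0 were higher, with a median of -0.66: Penk, the proenkephalin gene, was at -1.99 (FDR = 0.00927), while Col15a1 itself was at 0.36 (FDR = 0.144). Of 14 general fibroblast genes 3 were lower, 1 was higher and the median was -0.63. The lower genes were Htra3, a secreted serine protease (-0.80, FDR = 0.001), Scara5, a ferritin receptor (-1.46, FDR = 0.0342), and Fap, the fibroblast activation protease (-1.45, FDR = 0.0355). Podn, a small leucine-rich proteoglycan, went the other way, from 12.4 ± 2.31 to 51.6 ± 1.61 CPM (SD, n = 3 each, log2 fold change 2.05, FDR = 5.5e-05). Dcn (-0.65, FDR = 0.2) and Col1a1 (-0.50, FDR = 0.0532) did not pass. In all, 25 of the 31 tested genes of these lists had negative values and their median was -0.54. Of all genes tested, 8679 of 16565 had negative values and the median was -0.01. At the same FDR 3.3% of them were lower and 4.26% higher, so single calls in lists this short say little.

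Of the PDGF ligand and receptor genes, 2 passed, in opposite directions. Pdgfc, which signals through PDGFRA, rose by 0.66 on the log2 scale (FDR = 0.00082), from 40.8 ± 0.66 to 64.5 ± 2.30 CPM. Pdgfd, a ligand of the other receptor PDGFRB, was lower (-0.59, FDR = 0.00293). Pdgfa was at 0.21 (FDR = 0.185), Pdgfb at -0.07 (FDR = 0.895) and Pdgfrb at 0.33 (FDR = 0.0885). Over the 6 genes of this pathway 1 was higher and 1 lower, against 4.26% and 3.3% of all genes. Hedgehog signalling genes, some of which mark an adventitial niche with Ly6a-positive cells, did not pass in either direction (0 of 9 tested), including the target genes Gli1 (-0.28, FDR = 0.31) and Hhip (-0.98, FDR = 0.0571). By unadjusted p of edgeR's test, 3 of these 9 were lower and 1 was higher, against 11% and 11.1% of all genes. Shh had no count in any library. In the Ly6 family, Ly6c1 (-0.92, FDR = 0.226) and Ly6e (-0.72, FDR = 0.328) were the only other members high enough to be tested among 9.

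The markers also varied together within the groups, though the genes were chosen with earlier results of these data known. In all 9 tested genes iSM KO 3 was the highest and iSM KO 1 the lowest of the iSM KO aortas, an order that 20.9% of all genes had. It was not particular to fibroblast genes, as 9 of 10 endothelial and 3 of 4 tested Schwann cell markers had it. Among the other fibroblast lists it was found in 5 of 11 Pi16-type, 4 of 6 Col15a1-type and 4 of 14 general genes. In 6 of the 9 (Pdgfra, Pi16, Clec3b, Dpt, Serpinf1 and Gsn) Control 1 was the highest and Control 2 the lowest Control aorta, an order that 16.6% of all genes had. This Control order was found in 2 of 11 Pi16-type, 3 of 6 Col15a1-type and 7 of 14 general fibroblast genes. It was also found in 3 of 4 Schwann cell markers and in 0 of 10 endothelial markers. Control 1 exceeded Control 2 by 2.73-fold in Clec3b, 2.47-fold in Dpt, 1.99-fold in Serpinf1 and 1.87-fold in Pdgfra. Cd34 and Cd248 ran Control 1, 2, 3 from high to low, and Ly6a was highest in Control 2 and lowest in Control 3. The order of Ly6a was also that of 8 of 10 endothelial markers, and 10 of 10 endothelial markers were highest in iSM KO 3.

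**Figure D3:**
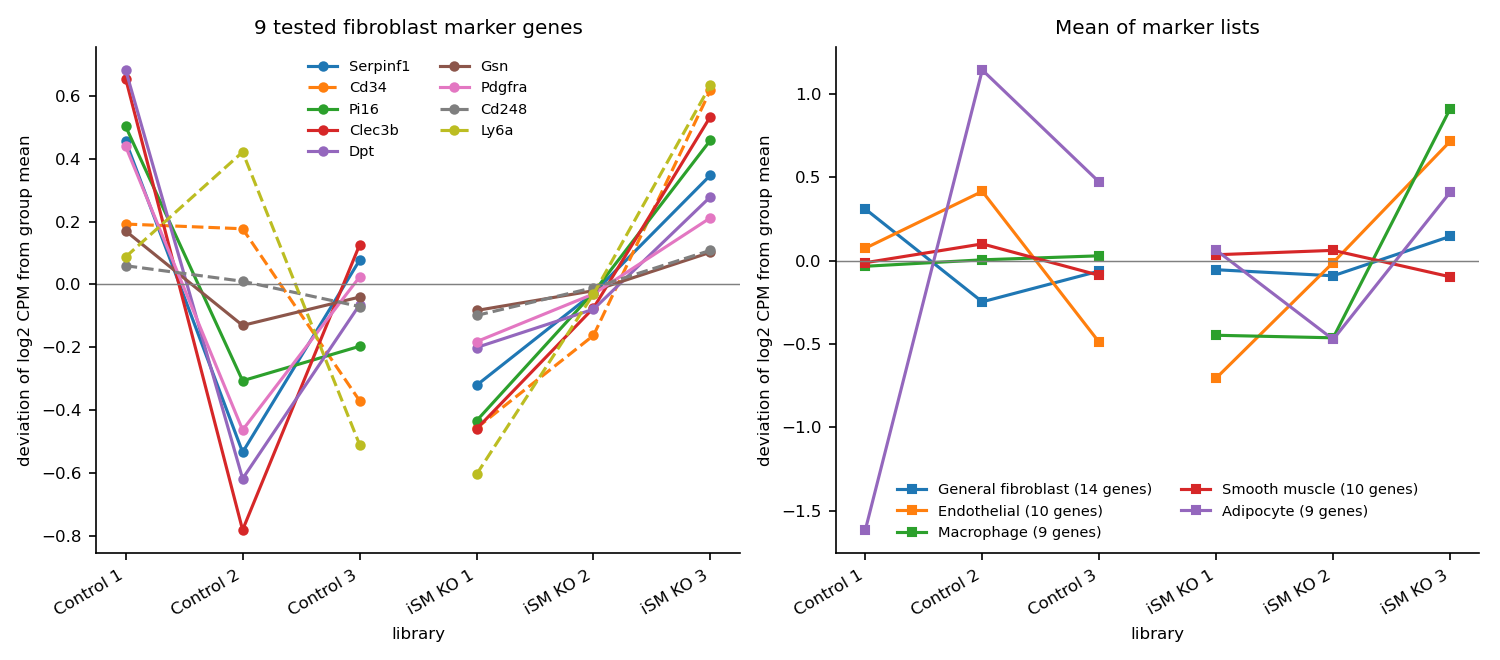
Deviation of log2 CPM from the mean of its own group (y axis) in each library (x axis), for the 9 tested marker genes (left) and for the mean of 5 marker lists (right); lines join the libraries of a group to make 1 gene or list easy to follow and imply no order, and dashed lines are Ly6a, Cd34 and Cd248. All 9 genes ended high in iSM KO 3, where the endothelial (0.72) and macrophage (0.91) lists were high too, and 6 genes dipped in Control 2, where the endothelial list was high (0.42).

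As a description over 6 libraries, with group means removed and with library and depth shared by all values, Pearson's r with the mean of 10 endothelial markers was 0.997 for Ly6a, 0.96 for Cd34 and 0.92 for Cd248. It was between 0.13 and 0.61 for the other 6 members. Cd248 varied little, its deviations running from -0.10 to 0.11, against -0.70 to 0.72 for the endothelial mean. Its log2 fold change (0.37) was opposite in sign to those of all 10 endothelial markers. Removing the group means also leaves fewer free values than libraries. With the mean of 14 general fibroblast genes, r was 0.98 for Dpt, 0.97 for Gsn, 0.95 for Pdgfra, 0.91 for Clec3b and Serpinf1 and 0.86 for Pi16, and 0.56, 0.42 and 0.17 for Cd248, Cd34 and Ly6a. This division into 6 and 3 genes was made after the values were seen. The mean of the 14 general fibroblast genes also hides genes that ran otherwise. Col1a1 and Col1a2 were highest in Control 3 and iSM KO 1, and lowest in Control 1 and iSM KO 3. The 5 genes most like the mean deviation of the 9 members, among all genes tested, were Stk36, Gm9905, Mettl7a1, Tshz2 and Pdpn (r of 0.998 or more over 6 libraries). Picking the best of all genes over so few libraries yields high r by itself, so these values carry no weight as evidence of a link. Pdpn, podoplanin, a glycoprotein of fibroblastic and lymphatic cells, was at 1.91, 0.677 and 0.839 CPM in Control 1 to 3 and at 0.0981, 0.201 and 0.493 CPM in iSM KO 1 to 3 (log2 fold change -2.12, FDR = 0.0679). Its iSM KO values rest on only 4, 7 and 18 counts, near the floor. The other 4 had log2 fold changes between -0.29 and 0.20, none with an FDR under 0.05.

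Markers of other cell types moved with these genes, in part. For the counts below, 3.3% of all genes were lower and 4.26% higher at an FDR under 0.05. At an unadjusted p under 0.05 these shares were 11% and 11.1%, and 8679 of all 16565 genes had negative fold changes. Summed over 10 genes, endothelial markers ranged from 608 to 1168 CPM in Control and from 343 to 894 CPM in iSM KO aortas. Their fold changes were negative in 10 of 10, with a median of -0.66, and 0 of 10 passed the FDR by edgeR's quasi-likelihood test in either direction (2 were lower at an unadjusted p under 0.05). Macrophage markers, 9 genes, summed to 33.8 to 35.3 CPM in Control and 14.3 to 40.4 CPM in iSM KO aortas, the upper end being iSM KO 3, and 0 of 9 passed (1 lower at an unadjusted p under 0.05). Mesothelial markers, 7 genes and none of them tested, summed to 0.90 to 1.30 CPM in Control, 0.27 to 0.40 CPM in iSM KO 1 and 2, and 5.12 CPM in iSM KO 3. Adipocyte markers, 10 genes that report perivascular fat, summed to 43.0 to 220 CPM in Control and 17.7 to 23.1 CPM in iSM KO aortas, with 7 of 9 tested genes lower, among them Adipoq (-3.93, FDR = 0.0147) and Fabp4 (-2.69, FDR = 0.00233). Among the Control aortas, adipocyte signal was least in Control 1 and most in Control 2. This was the reverse of the Control order by which Pdgfra, Pi16, Clec3b, Dpt, Serpinf1 and Gsn were grouped above. Those genes were grouped by that order after the values were seen, so the match followed from the grouping. Ly6a, in contrast, was highest in Control 2, and Cd34 and Cd248 were lowest in Control 3. Adipocyte sums and the mean of each gene grouped by that Control order were both lower in iSM KO than in Control aortas. Smooth muscle markers summed to 25764 to 30416 CPM in Control and 27546 to 30342 CPM in iSM KO aortas, sums made up mostly of Myh11, Acta2 and Tagln. Of these 10 genes 8 had positive fold changes, with a median of 0.19, and 2 were higher at an FDR under 0.05: Des, the intermediate filament desmin (1.24, FDR = 0.00381), and Myocd, the coactivator myocardin (0.65, FDR = 0.0109). Schwann cell markers summed to 5.05 to 7.85 CPM in Control and 5.25 to 10.98 CPM in iSM KO aortas, and 0 of 4 tested passed by edgeR in either direction, none of them with an unadjusted p under 0.05. Of 8 lymphocyte markers only Trbc2 was tested, and it was higher (1.79, FDR = 0.0425) at levels below 1 CPM. What part the amounts of these other cells or of leftover adventitia had in the fibroblast values was not tested.

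**Figure D4:**
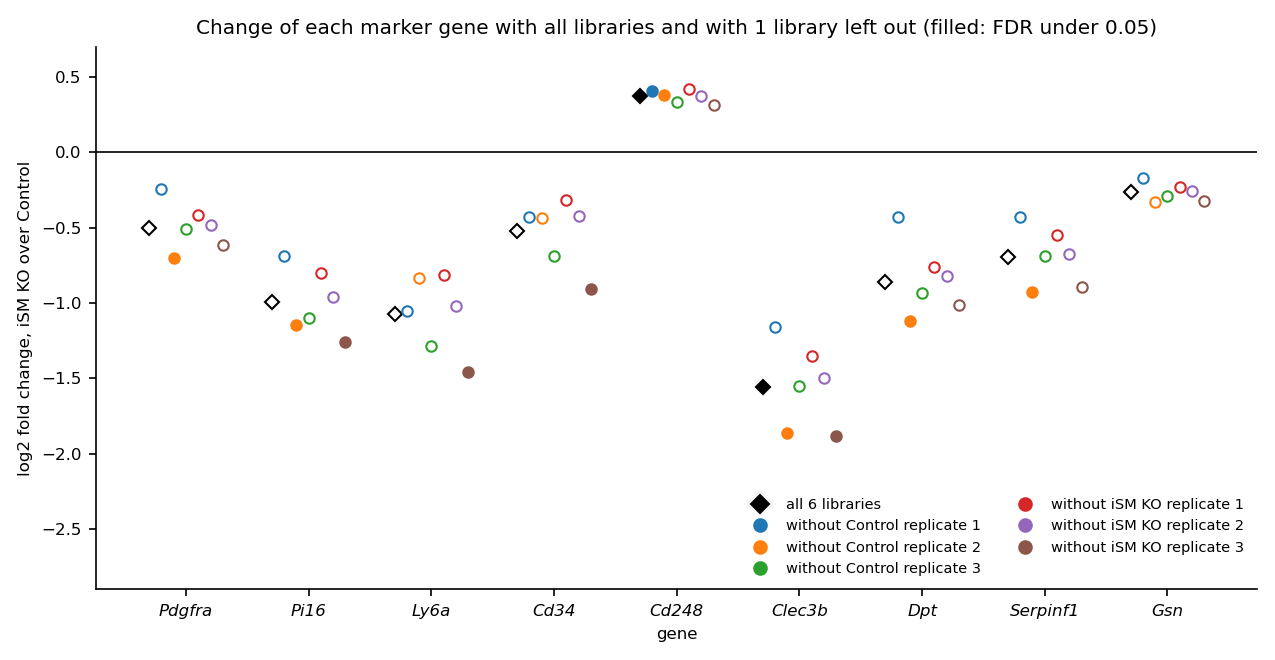
Log2 fold change of iSM KO over Control (y axis) for the 9 tested genes (x axis), with all 6 libraries (diamonds) and with each library left out (circles, coloured by the library); filled symbols have an FDR under 0.05. Every value kept its sign, and the most genes were filled without Control 2 (5 lower) and without iSM KO 3 (4 lower). Over all genes, 638 were lower without Control 2 and 541 without iSM KO 3, against 547 with all 6 libraries.

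Leaving out single libraries moved the number of lower members between 0 and 5. Without Control 2 it was 5 (Clec3b, Dpt, Pdgfra, Pi16 and Serpinf1), without iSM KO 3 it was 4 (Cd34, Clec3b, Ly6a and Pi16), and without each of the other 4 libraries it was 0. Over all genes, 638 were lower without Control 2 and 541 without iSM KO 3, against 547 with all libraries. Without Control 1, Control 3, iSM KO 1 and iSM KO 2 there were 419, 379, 241 and 203. In those 4 fits lower calls were thus fewer over all genes too, not only among the members. The sign of each of the 9 fold changes was the same in all 13 alternatives tried. Counts of some members carry a further uncertainty, since the use of strand in counting was not given in the sources used here. Exons of Pdgfra, Pi16, Cd34 and Dpp4 overlap an antisense gene, and Ly6a shares 263 bases of transcript at 96.6% identity with Ly6c1. Pi16 shares a stretch with transcripts of 237 other genes, a count that includes its overlapping antisense gene. The other Pi16 matches are short and repeat-like. Clec3b, Cd248, Dpt, Serpinf1 and Gsn had no such overlap in exons and no near-identical copy in the annotation.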

How the data were processed

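Bulk RNA-seq of 6 aortas (3 Control, 3 iSM KO) was analysed. Per the study's methods and the labels, ribosomal RNA-depleted libraries were sequenced paired-end and the authors used DRAGEN with mm10 and Ensembl 101 to make the deposited estimated counts per gene. These are not whole for 10.9% to 12.2% of values, and were rounded here. A gene entered the fit when every sample of 1 or both groups had more than 10 counts (16565 of 55487 genes). CPM and fits used TMM scaling and edgeR 4.0.16's quasi-likelihood test, with Benjamini-Hochberg FDR over all tested genes. The study's threshold was an FDR under 0.05 with an absolute log2 fold change over 1. No replicate pair agreed within sampling noise. Alternatives used DESeq2 1.42.0, limma 3.58.1 (voom), other scalings and filters, a replicate block and leaving out each library. Scripts were tested on simulated data. Positions, exon lengths and copies (blastn 2.17.0) came from GENCODE M21 on GRCm38, promoters from RefSeq on GRCm38.p6. Named genes were the members, the 5 genes most like them, and genes of the lists. The members and lists were chosen with earlier results of these data known. With 3 against 3 aortas, a 2-sided exact permutation test of 1 gene cannot go below 0.1, so none was used. At these depths 3 counts are 0.0736 to 0.126 CPM.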

Additional observations from a re-analysis of the deposited data

How the results depend on the processing

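Over 13 alternatives no fold change of a member reversed. The number of members lower in iSM KO at an FDR under 0.05 was 1, and became 3 with DESeq2 (Clec3b, Pi16 and Serpinf1), 0 with limma-voom and 6 without a filter on low counts (Clec3b, Dpt, Ly6a, Pdgfra, Pi16 and Serpinf1), and ranged from 0 to 5 when single libraries were left out. With the fold over 2 it was 1, and became 0 with limma-voom and 2 without a filter, and ranged from 0 to 3 over the left-out libraries. The number of higher members was 1 (Cd248), and ranged from 0 to 1 over the left-out libraries. Lower calls over all genes were 769 with DESeq2, 533 with limma-voom and 863 without a filter (30712 genes tested), against 547. Over the left-out libraries they ranged from 203 to 638, and higher calls over all genes from 313 to 764, against 705. Clec3b passed the FDR in 7 and Cd248 in 8 of the 13 alternatives, Pi16 in 4 and Gsn in 0. Dpp4 was tested in 3 of them, with log2 fold changes from -1.61 to -1.34 and FDR from 0.351 to 0.409. With a replicate block no member passed in either direction (0 higher, 0 lower, and 0 past the fold of 2): Clec3b had an FDR of 0.0588 and Cd248 of 0.0917, and over all genes 457 were higher and 318 lower, against 705 and 547. The labels do not say whether the replicate numbers pair the samples. Deviations of same-numbered libraries correlated at -0.13, -0.05 and -0.11, and no library correlated best with its own number. These values cannot show whether same-numbered aortas shared a litter or day. The causes of these changes were not tested. Each of the 9 tested members had at least 113 counts in every library, and depth limited Dpp4 alone (1 to 22 counts).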
